A study of Homo sapiens with 24 samples.

Results

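The comparison described here set LNCaP against PNT1a cells on vector-control arrays alone: 6 arrays of LNCaP and 6 of PNT1a, 12 of the 24 arrays of the series. Of the 48803 probes on the array, the 12830 that lay above the background level (log2 intensity of 6.97) on at least 6 of these 12 arrays were tested, and they covered 9033 genes with a single symbol. The study measured RNA of both prostate lines on Illumina expression arrays, labelled as empty vector or HIP1, a clathrin adaptor, in 4 groups of 6 labelled biological replicates. The LNCaP cells, from a prostate cancer, had been transfected transiently with empty vector and were taken on day 4. The PNT1a cells, prostate epithelium immortalised in culture, carried empty vector stably and were kept in G418 at 0.8 mg/ml. Both were grown in RPMI with 10% serum. The sources used here do not give whether the PNT1a cells were a clone or a pool. Line, mode of transfection and drug selection coincided on these arrays and cannot be told apart, and the labels used here name no chip or day of scanning.

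LNCaP cells respond to androgens and secrete kallikrein proteases, as the luminal cells that line prostate glands do. PNT1a was derived from normal prostate epithelium with the SV40 large T antigen, a viral protein that inactivates the retinoblastoma and p53 tumour suppressors. Epithelial cells are held together by E-cadherin and claudins, whereas vimentin, caveolin and contractile proteins are typical of mesenchymal and of spread, migrating cells in culture.

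The deposited columns share a single distribution, so all 12 arrays have a median log2 intensity of 6.56 and 12114 to 12122 probes over the background level. Over the tested probes, LNCaP vector arrays correlated with their own group at a mean r of 0.991 to 0.993, and PNT1a arrays 1 to 5 at 0.980 to 0.984. PNT1a array 6 stood apart at 0.949. So did array 6 of the HIP1-labelled PNT1a group, at 0.958 against 0.982 to 0.983 for the other 5. These HIP1-labelled values were taken over all 48803 probes, so their size is not to be set against the vector values. Among PNT1a vector arrays 1 to 5, arrays 1 and 2 correlated at 0.995 and arrays 3 to 5 at 0.995 to 0.996. Between these sets r was 0.986 to 0.988, so the 5 arrays were not evenly alike. The labels used here name no such sets. Between the lines the mean r on vector arrays was 0.740 to 0.758. The median SD over tested probes was 0.13 in LNCaP and 0.18 in PNT1a, or 0.12 in PNT1a without array 6. It held the outlying PNT1a value for 38 of the genes named below. Without it, all 38 kept their direction and call, and their differences moved by a median of 0.15 and at most 0.57 on the log2 scale.

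The lines differed at most of the probes tested. In the limma fit, 9780 of 12830 probes (76.2%) passed an adjusted p of 0.05, with 5146 (40.1%) higher in LNCaP and 4634 (36.1%) higher in PNT1a. A difference of at least 2-fold was called for 2967 probes (23.1%), of which 1530 (11.9%) were higher in LNCaP and 1437 (11.2%) in PNT1a, and the arrays of the lines did not overlap for 7635 probes (59.5%). By gene, with the brightest probe for each, 39.2% of the 9033 were called higher in LNCaP and 38.2% in PNT1a, the shares against which list counts are to be read, and 1067 were at least 2-fold higher in LNCaP and 1144 in PNT1a. Large differences were more often toward PNT1a: 160 genes were at least 8-fold higher there and 72 in LNCaP, and 62 and 22 genes passed 16-fold. Presence differed as well. The level was passed on all 6 LNCaP arrays and no PNT1a array by 801 probes, of 558 genes. On all 6 PNT1a arrays and no LNCaP array it was passed by 886 probes, of 711 genes. On all 12 arrays it was passed by 8874 probes, of 6580 genes. Any probe of a gene counted here, not the brightest alone, so a gene with several probes can be in several classes. In RNA from whole cultures, fewer cells with a transcript and less of it per cell cannot be told apart.

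**Figure D1:**
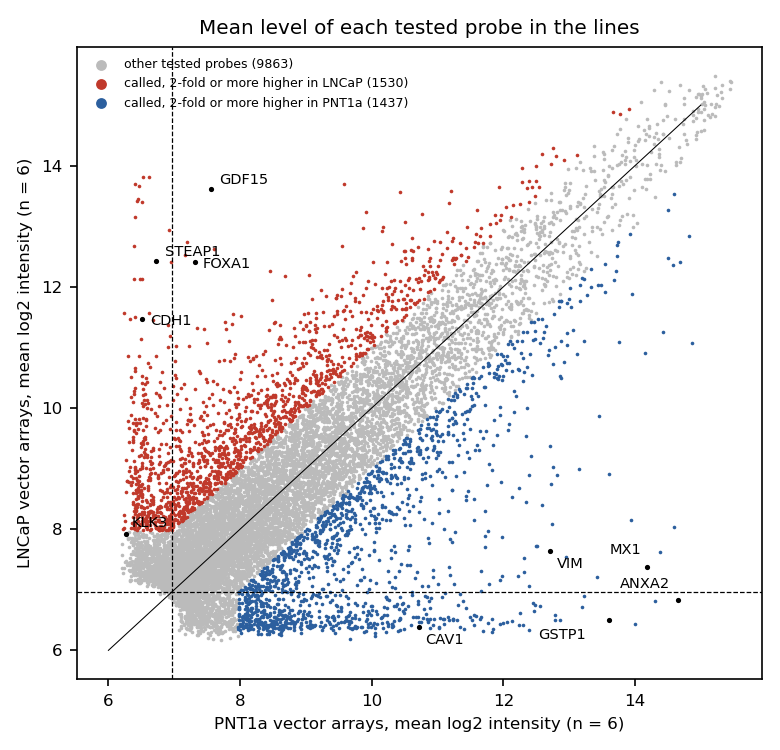
Mean log2 intensity of each of the 12830 tested probes on the 6 PNT1a (x axis) and 6 LNCaP (y axis) vector arrays, with the background level of 6.97 dashed and equality as a solid line. The 1530 red probes were called at least 2-fold higher in LNCaP and the 1437 blue ones in PNT1a, and the probes along the dashed lines were measured in a single line.

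The plot of group means shows these classes as arms that run along the background level. A gene that passed the filter through a single line had to differ, so counts among genes tested describe the comparison and say nothing of genes that were dim in both lines. The same limit holds for the list counts and medians below, as members that passed through a single line could only be higher there. Group means under 6.97 were set to 6.97, and a fold change against such a mean is a bound ("at least"). All directions depend on the common scale of the deposited values. Probes for cytosolic ribosomal proteins were on average 0.56 (log2) higher in LNCaP, and an equal level of these genes would move the median difference over probes from 0.04 to -0.53 and the share of calls that were higher in LNCaP from 52.6% to 21.9%. Directions that turn under that scale are named with their genes.

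The 3 marker genes separated the lines. KLK3, which encodes prostate-specific antigen, read 7.68, 7.86 and 8.32 on the LNCaP arrays (lowest, median and highest log2 intensity of 6) and 6.06, 6.28 and 6.46 on the PNT1a arrays, where it was under the background level throughout. The groups did not overlap, and KLK3 was at least 1.94-fold higher in LNCaP (limma adjusted p = 1.6e-09), a bound short of 2-fold because its LNCaP level was itself low. VIM, the intermediate filament vimentin, read 7.39, 7.65 and 7.85 in LNCaP and 12.54, 12.69 and 12.99 in PNT1a, a difference of -5.08 (95% interval -5.28 to -4.87) or 33.8-fold in favour of PNT1a. CAV1, the coat protein of caveolae, read 6.30, 6.4 and 6.46 in LNCaP, under the level on all 6 arrays, and 9.83, 10.90 and 10.97 in PNT1a. It was at least 13.4-fold higher in PNT1a, and the lowest PNT1a value was array 6. The other tested CAV1 probe gave a bound of -0.91 (log2), the same direction but short of 2-fold. For KLK3, VIM and CAV1 the exact two-sided permutation p was 0.0022, the smallest that 924 splits of the 12 arrays allow. HIP1 itself, measured by 1 probe, read 7.19, 7.44 and 7.59 in LNCaP and 7.30, 7.74 and 7.86 in PNT1a, and the ranges overlapped. HIP1 was lower in LNCaP by 0.29 on the log2 scale (limma adjusted p = 0.018, exact permutation p = 0.030). On the HIP1-labelled arrays the probe was not raised beyond the spread: it read 7.29 ± 0.15 against 7.40 ± 0.16 with vector in LNCaP and 7.79 ± 0.35 against 7.69 ± 0.21 in PNT1a (SD, n = 6). The exact two-sided permutation p was 0.23 and 0.54, or 0.46 and 0.54 after adjustment over both lines. Whether this probe detects the introduced HIP1 was not tested.

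**Figure D2:**
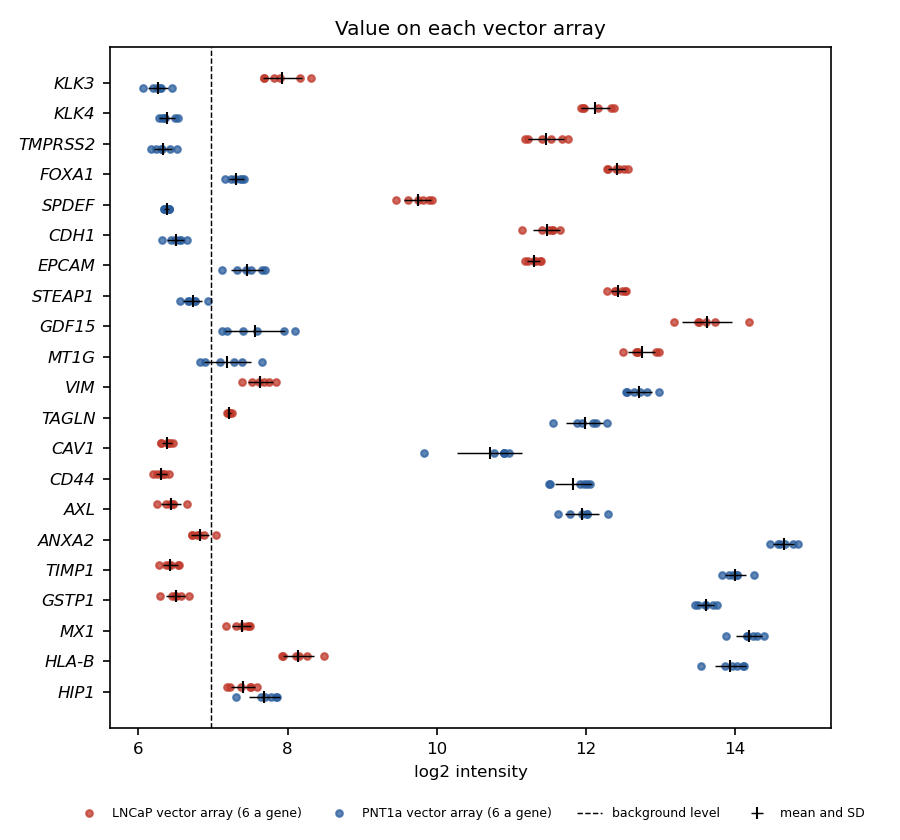
Log2 intensity (x axis) of 21 genes on each of the 6 LNCaP (red) and 6 PNT1a (blue) vector arrays, with the mean and SD of each group in black and the background level of 6.97 dashed. For every gene but HIP1 the red and blue points do not overlap. Genes whose lower line lies under the background level on all 6 arrays include KLK3, KLK4, TMPRSS2, SPDEF, CDH1, STEAP1, CAV1, AXL, TIMP1 and GSTP1.

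The 12 genes with the largest differences toward LNCaP joined prostate luminal genes to genes of other tissues. GAGE12G and GAGE4, cancer-testis antigens of a cluster on the X chromosome, led with 13.62, 13.86 and 13.89 and 13.22, 13.42 and 13.59 in LNCaP and no PNT1a array above the level, at least 115-fold and at least 86.8-fold higher. Copies of GAGE genes are nearly identical, so which copy gave the signal is uncertain. GDF15, a stress-induced hormone of the TGF-beta family, read 13.18, 13.56 and 14.18 in LNCaP and 7.12, 7.49 and 8.10 in PNT1a, 66.9-fold higher in LNCaP with no overlap. PEG3, an imprinted zinc finger gene expressed from the paternal copy, was at least 52.1-fold higher and under the level on every PNT1a array. Also among the 12 were MT1G, a zinc-binding metallothionein (47.1-fold), STEAP1, a metalloreductase of prostate cells (at least 44.2-fold), and TMEFF2, a transmembrane protein of prostate and brain (at least 43.7-fold). The other tested STEAP1 probes gave smaller bounds of 3.25 and 0.32 (log2). MAOA, the mitochondrial monoamine oxidase, was 40.8-fold higher, and DDC, which makes dopamine and serotonin, at least 35.6-fold. LAD1, an anchoring filament protein, FOXA1, the pioneer factor that opens chromatin at androgen receptor sites, and KLK4, a kallikrein protease, complete the 12. LAD1 rests on 1 of its 5 probes, as the others did not pass the filter. FOXA1 read 12.28, 12.42 and 12.56 in LNCaP and 7.16, 7.33 and 7.41 in PNT1a, 34.4-fold higher. SDs within LNCaP were 0.05 to 0.33 for these 12 genes.

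The 12 largest differences toward PNT1a covered membrane, matrix and interferon-induced genes. ANXA2, an annexin that binds membranes and plasminogen, read 6.71, 6.80 and 7.05 in LNCaP and 14.46, 14.63 and 14.85 in PNT1a, at least 206-fold higher (limma adjusted p = 1.2e-18). Its other tested probes gave smaller bounds of -4.80 and -2.65 (log2). S100A10, the S100 protein that pairs with annexin A2, was 94.1-fold higher in PNT1a, with 7.77, 8.0 and 8.37 in LNCaP. ANXA2 was above the level on 1 of 6 LNCaP arrays and S100A10 on all 6. LGALS1, the galactoside-binding galectin 1, was at least 162-fold higher, TIMP1, an inhibitor of metalloproteinases, at least 131-fold, and GSTP1, the glutathione transferase lost in most prostate cancers, at least 99.5-fold. TPM2, a tropomyosin of contractile filaments, CCN2, a secreted target of YAP and TGF-beta, and IGFBP6, which binds IGF2, were at least 76.5-fold, at least 56.6-fold and at least 56.2-fold higher. The interferon-induced genes MX1, IFI27 and OAS2 were also in this group. OLR1, a scavenger receptor for oxidised LDL, read 10.02, 13.43 and 13.53 in PNT1a: array 6 held the lowest value and the other 5 lay between 13.28 and 13.53. Without that array the difference for OLR1 went from -5.90 to -6.47 on the log2 scale.

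Luminal prostate genes were higher in LNCaP. Of 30 listed androgen-regulated and luminal secretory genes, 26 had a named probe and 19 were tested. All 19 were called higher in LNCaP, with a median difference of 1.10 against 0.01 over all genes tested, and 10 passed 2-fold. Of the 26, 21 had a mean above the level in LNCaP and 6 in PNT1a. Most of those tested thus passed the filter through LNCaP, which set their direction. KLK4, STEAP1, TMPRSS2, STEAP2 and SLC45A3 led. TMPRSS2, a membrane serine protease whose promoter is often fused to ETS genes in prostate cancer, read 11.18, 11.47 and 11.76 in LNCaP and 6.17, 6.31 and 6.52 in PNT1a, at least 22.6-fold higher with no overlap. SLC45A3, a sugar transporter known as prostein, read 7.73, 7.90 and 8.01 in PNT1a and so was measured in both lines, 12.7-fold higher in LNCaP. When arrays were centred on ribosomal proteins, 15 of the 19 were higher in LNCaP and 1 lower. The mean over the 26 genes was 8.57 to 8.69 per LNCaP array and 6.83 to 6.91 per PNT1a array. The other 7, MSMB and TRPM8 among them, did not pass the filter.

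The promoter of KLK3 is the textbook case of androgen control, and its proximal response element lies in the window before the start. The RefSeq sequence (GRCh38.p14, plus strand, chr19:50854725-50854784) is shown for a stretch before the start, with the letters AGAACA of an androgen receptor site in capitals.
KLK3: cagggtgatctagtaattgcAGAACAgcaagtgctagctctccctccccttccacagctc
AGAACA on either strand occurred in 4 of the 15 promoters matched for this list and in 8.49% of the 7470 promoters of genes tested, so the short motif is common and its presence is a description of the letters alone.

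Transcription factors of luminal and epithelial identity followed the same direction. Of 18 listed, 16 had a named probe and 9 were tested, and 8 were called at least 2-fold higher in LNCaP with 0 lower (median of the 9, 1.98). Of the 16, 9 had a mean above the level in LNCaP and 4 in PNT1a. For those that passed the filter through LNCaP alone, the filter set the direction. OVOL2, a repressor of mesenchymal genes, read 10.04, 10.13 and 10.22 in LNCaP and 6.35, 6.57 and 6.69 in PNT1a, at least 8.97-fold higher. EHF and SPDEF, ETS factors of secretory epithelium, were at least 8.69-fold and at least 6.86-fold higher, and HOXB13, a homeobox partner of the androgen receptor, at least 3.96-fold. In each the PNT1a arrays were all under the level. ELF3, an epithelial ETS factor, was the exception, at 7.78, 7.93 and 8.09 in LNCaP and 7.04, 7.86 and 8.65 in PNT1a (limma adjusted p = 0.94).

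Epithelial adhesion genes separated the lines as well. Of 30 listed adhesion and splicing genes, 20 were tested, 18 were called higher in LNCaP and 1 in PNT1a (median 1.81). Means of 20 listed genes were above the level in LNCaP and of 10 in PNT1a, so the filter set part of this direction. CDH1, which encodes E-cadherin, read 11.15, 11.53 and 11.66 in LNCaP and 6.32, 6.52 and 6.65 in PNT1a, under the level on every PNT1a array and at least 22.7-fold higher in LNCaP. SPINT2, an inhibitor of epithelial serine proteases, was 32.4-fold higher, EPCAM, the epithelial adhesion molecule, 14.4-fold, CLDN7, a tight junction claudin, at least 14.8-fold, and RAB25, a GTPase of apical recycling, at least 14.8-fold. CLDN1, another claudin, ran the other way and was named after its value was seen: 6.22, 6.52 and 6.62 in LNCaP against 7.15, 8.70 and 8.91 in PNT1a, at least 2.85-fold higher in PNT1a. TJP1, the scaffold ZO-1, read 9.94, 10.22 and 10.35 and 9.84, 10.24 and 10.33, and the 95% interval of its difference was -0.21 to 0.21 (limma adjusted p = 0.97).

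Of 4 tested simple epithelial keratins, KRT7, KRT80 and KRT8 were higher in PNT1a and KRT18 in LNCaP. KRT7 read 6.38, 6.53 and 6.65 in LNCaP, under the level throughout, and 10.59, 10.94 and 11.35 in PNT1a, at least 15.7-fold higher. KRT8, the partner of KRT18 in simple epithelia, was 2.94-fold higher in PNT1a with no overlap, at 9.51, 9.60 and 9.74 and 10.64, 11.30 and 11.45. KRT18 was 1.5-fold higher in LNCaP, a difference of 0.59 that shrank to 0.02 when arrays were centred on ribosomal proteins (limma adjusted p = 0.84). Of 21 listed basal markers 14 had a named probe and 5 were tested, and those 5 were called higher in PNT1a. CD44, the hyaluronan receptor, was at least 29.1-fold higher, LAMB3, a laminin-332 chain, at least 5.36-fold, SFN, the 14-3-3 sigma protein, at least 2.59-fold, and EGFR, the EGF receptor, 1.60-fold, with overlapping ranges and a call on 1 of its 2 tested probes. S100A2 differed by -0.22 (limma adjusted p = 0.046) and lost the call when any of 8 of the 12 arrays was left out. KRT5 and KRT14, the defining basal keratins, did not pass the filter in either line.

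Mesenchymal and contractile genes were higher in PNT1a. Of 28 listed, 17 were tested, 16 were called higher in PNT1a and 1 in LNCaP, with a median of -3.20. By their means 7 of the 28 were above the level in LNCaP and 17 in PNT1a, so the filter set part of this direction too. TAGLN, the actin-binding transgelin, read 7.19, 7.22 and 7.26 in LNCaP and 11.56, 12.02 and 12.28 in PNT1a, 27.2-fold higher. TGFBI, a matrix protein, was at least 12.6-fold higher, and FSTL1, a secreted follistatin-like protein, at least 13.3-fold. COL5A2, a fibrillar collagen chain, read 8.30 on PNT1a array 6 and 11.08 to 11.43 on the other 5. Its difference was -3.70, and -4.19 without array 6. CALD1, the actin-binding caldesmon, was the member that was higher in LNCaP (1.93-fold, named after its value was seen).

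The coat of caveolae moved with these genes. CAVIN1, which stabilises caveolin coats, read 7.41, 7.74 and 7.93 in LNCaP and 12.34, 12.51 and 12.64 in PNT1a, 27.6-fold higher in PNT1a. CAV2 and CAVIN3 were at least 3.16-fold and at least 4.98-fold higher there, with LNCaP under the level on every array. PACSIN2, which bends membranes at caveolae and endosomes, was 1.33-fold higher in LNCaP, and turned to a difference of -0.16 when arrays were centred on ribosomal proteins. In all, 5 of 9 listed coat genes were tested, 4 higher in PNT1a and 1 in LNCaP.

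Markers of other cell types were examined beside these groups. Of 15 fibroblast and stromal markers, 7 were tested, 6 higher in PNT1a and 1 in LNCaP. FBLN1, a matrix fibulin, THY1, a surface glycoprotein, ACTA2, smooth muscle actin, and PDGFRB, the PDGF receptor, were at least 20.1-fold, at least 10.8-fold, 9.17-fold and at least 6.88-fold higher in PNT1a, and the collagen COL1A1 was at least 1.82-fold higher. The member higher in LNCaP was PDGFRA, another PDGF receptor (at least 1.40-fold), whose direction turned with ribosomal centring. DCN, LUM, FAP, COL1A2 and COL3A1, which define fibroblasts, did not pass the filter. The mean of the 15 ranged from 6.72 to 6.80 over LNCaP arrays and from 7.70 to 7.86 over PNT1a arrays. Of 14 leukocyte and blood markers with a named probe, 3 passed (CD68, CD14 and HBA2), all higher in PNT1a, and PTPRC, the general leukocyte marker, did not. Of 11 endothelial markers, ENG and EGFL7 were higher in PNT1a and VWF in LNCaP, and PECAM1 and CDH5 did not pass. The part of other cells in the mesenchymal difference was not tested.

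All tested interferon-stimulated genes were higher in PNT1a. Of 41 listed, 39 had a named probe and 38 were tested, and all 38 were called higher in PNT1a, 37 of them by at least 2-fold, with a median difference of -3.44. These genes are switched on when interferons activate the JAK-STAT pathway and encode antiviral proteins. MX1, a dynamin-like GTPase that blocks viruses, read 7.17, 7.42 and 7.50 in LNCaP and 13.88, 14.21 and 14.38 in PNT1a, 112-fold higher (limma adjusted p = 8.4e-18). IFI27, a small mitochondrial protein, was 107-fold higher, OAS2, which makes the 2-5A signal for RNA decay, at least 74.8-fold, UBE2L6, the conjugating enzyme for ISG15, 42.8-fold, and MX2, at least 32.6-fold. None of these ranges overlapped. The other tested OAS2 probes gave smaller bounds of -2.35 and -1.01 (log2). The mean over the 39 genes lay between 7.62 and 7.84 on LNCaP arrays and between 10.83 and 11.37 on PNT1a arrays. LNCaP was not empty of the group: 24 of the 39 genes had a mean above the level there, and all 39 did in PNT1a.

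The response element for interferon is a pair of TTTC repeats, and stretches of 3 promoters that hold it are shown because the genes lie among the differences described. Sequences are RefSeq windows (GRCh38.p14, plus strand), and capitals mark TTTC, any 2 bases and TTTC again, or GAAA, any 2 bases and GAAA on the other strand. The stretches lie before the start of IFI44L (chr1:78620268-78620397), IFIT3 (chr10:89327827-89327906) and IFI27 (chr14:94110616-94110665).
IFI44L: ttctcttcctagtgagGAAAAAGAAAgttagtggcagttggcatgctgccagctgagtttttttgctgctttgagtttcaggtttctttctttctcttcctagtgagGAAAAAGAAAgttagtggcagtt
IFIT3: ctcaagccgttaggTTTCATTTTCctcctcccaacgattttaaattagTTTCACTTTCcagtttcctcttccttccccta
IFI27: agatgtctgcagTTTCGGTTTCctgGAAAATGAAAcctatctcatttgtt
Each of the 3 stretches holds the motif on 2 positions, and in IFI44L the surrounding bases are repeated too. IFI44L read 6.39, 6.5 and 6.77 in LNCaP and 11.35, 11.47 and 12.11 in PNT1a, and IFIT3, which holds viral RNA with its partners, 6.77, 7.0 and 7.14 and 11.30, 11.71 and 11.97. Of the 32 listed interferon genes with a promoter window, 22 (68.8%) held the motif, against 2.88% of the 7470 promoters of genes tested and 3.65% of 27305 in the RefSeq table.

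Antigen presentation genes followed. Of 16 genes of MHC class I and peptide loading, 14 were tested, 12 higher in PNT1a and 2, PSMB10 and ERAP2, in LNCaP (median -2.60). PSMB10 turned to -0.13 with ribosomal centring. HLA-B, a classical class I heavy chain, read 7.92, 8.13 and 8.49 in LNCaP and 13.55, 13.99 and 14.12 in PNT1a, 55.4-fold higher. Class I genes are close in sequence, so their probes may share signal. PSMB8 and PSMB9, subunits of the immunoproteasome, were at least 23.1-fold and at least 15.1-fold higher, with every LNCaP array under the level, and the class I genes HLA-F and HLA-E 13.9-fold and 7.68-fold. Of 27 JAK-STAT components, 19 were tested, 14 higher in PNT1a and 2, JAK2 and PTPN6, in LNCaP (median -0.66), and JAK2 turned to -0.33 with ribosomal centring. JAK1, a kinase that all interferon receptors use, read 6.42, 6.59 and 6.72 in LNCaP, under the level on all 6 arrays, and 7.29, 8.59 and 8.76 in PNT1a, at least 2.73-fold higher. The receptor chains IFNGR1 and IFNGR2 were 2.42-fold and 2.53-fold higher in PNT1a, and IL6ST, the shared IL6 receptor chain, 3.23-fold. TYK2, the partner kinase of JAK1, read 9.48, 9.56 and 9.71 and 9.63, 9.72 and 10.25 (limma adjusted p = 0.058).

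Of 26 receptor tyrosine kinases, 13 were tested, 7 higher in PNT1a and 2, ERBB3 and PDGFRA, in LNCaP (median -0.27). AXL, the receptor for GAS6, read 6.24, 6.44 and 6.66 in LNCaP, under the level throughout, and 11.63, 11.98 and 12.29 in PNT1a, at least 31.6-fold higher. ERBB3, the neuregulin receptor, was the mirror image, at 9.86, 9.98 and 10.21 in LNCaP and 6.45, 6.59 and 6.75 in PNT1a, at least 8.20-fold higher in LNCaP. FGFR3 and EPHA2 were 6.39-fold and at least 2.40-fold higher in PNT1a. ERBB2 read 10.15, 10.23 and 10.36 and 9.69, 10.10 and 10.37, a difference of 0.19 (95% interval -0.03 to 0.40) that turned to -0.38 with ribosomal centring. Among 7 tested ligands and IGF-binding proteins of 19 listed, 6 were higher in PNT1a and 1, IGFBP2, in LNCaP (median -2.01). Means of 2 listed members were above the level in LNCaP and of 10 in PNT1a, so the filter set part of this direction. IGFBP7 and IGFBP4, secreted binders of IGFs, were at least 20.7-fold and at least 16.8-fold higher in PNT1a, and FGF2 at least 4.02-fold. IGFBP7 read 9.39 on PNT1a array 6 and 11.66 to 11.82 on the other 5.

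Integrins were higher in PNT1a, with 5 of 6 tested subunits called (20 listed, median -1.61). ITGB2, the beta chain of leukocyte integrins, read 6.84, 6.88 and 7.04 in LNCaP and 10.53, 10.59 and 10.72 in PNT1a, at least 12.4-fold higher. ITGA3 and ITGA5, receptors for laminin and fibronectin, were 4.01-fold and 3.64-fold higher, and ITGB1, their common beta chain, 1.89-fold. ITGAV, the alpha chain of vitronectin receptors, differed by -0.24 and missed the threshold (limma adjusted p = 0.051).

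Cell cycle genes were higher in PNT1a. Of 30 proliferation genes, 28 were tested, 26 were called higher in PNT1a and 0 in LNCaP, with a median of -1.37. AURKA, a spindle kinase, read 9.57, 9.76 and 9.85 in LNCaP and 11.84, 12.09 and 12.33 in PNT1a, 5.10-fold higher. KIF11, the motor that separates spindle poles, TOP2A, which untangles DNA, and the replication helicase subunits MCM3 and MCM6 were 3.94-fold, 3.63-fold, 3.79-fold and 3.46-fold higher. CDK1 and CCNE1 were not called, at 0.22 and -0.14, and CDK1 turned to -0.35 when arrays were centred on ribosomal proteins. Of 10 tested genes among pocket proteins, CDK inhibitors and p53, 6 were higher in PNT1a and 2, RBL2 and CCND1, in LNCaP. CDKN2A, the locus of p16, was 2.98-fold higher in PNT1a at 7.37, 7.59 and 7.85 in LNCaP and 8.88, 9.20 and 9.50 in PNT1a. CCND3, a D-type cyclin, was 2.72-fold higher in PNT1a, and RBL2, the pocket protein p130, 1.78-fold higher in LNCaP.

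Of 17 tested p53 target genes, 9 were higher in LNCaP and 3, TP53I3, BAX and GADD45A, in PNT1a, with a median of 0.41. Over all genes tested 77.4% were called, 39.2% higher in LNCaP and 38.2% in PNT1a, and 12 of these 17 were. SESN1, a stress sensor, read 9.41, 9.66 and 9.75 in LNCaP and 7.49, 7.73 and 7.78 in PNT1a, 3.80-fold higher in LNCaP, and XPC, a DNA damage sensor, was 2.60-fold higher. TP53INP1, a stress-induced nuclear protein, was at least 3.14-fold higher. TP53I3, an oxidoreductase, was 3.11-fold higher in PNT1a. When arrays were centred on ribosomal proteins, 6 were higher in LNCaP and 8 in PNT1a. Among 10 tested genes of the PI3K pathway, 5 were higher in LNCaP and 4 in PNT1a (median -0.01). PIK3R1, the regulatory subunit of PI3 kinase, was 4.23-fold higher in LNCaP, at 9.01, 9.08 and 9.42 against 6.96, 7.07 and 7.23, and AKT1, a kinase downstream of it, 1.92-fold higher in PNT1a.

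Of 22 tested sterol and fatty acid synthesis genes, 16 were higher in LNCaP and 2, SQLE and LSS, in PNT1a (median 0.81), and with ribosomal centring 9 and 6. FASN, fatty acid synthase, read 13.52, 13.62 and 13.81 in LNCaP and 11.30, 11.95 and 12.33 in PNT1a, 3.30-fold higher. ACACA, which supplies malonyl-CoA, was 4.26-fold higher, AMACR, a racemase used as a prostate cancer stain, at least 4.50-fold, and SCD, which desaturates fatty acids, 4.00-fold. SCD varied in PNT1a from 8.61 to 11.48. Of 11 polyamine genes, 10 had a named probe and were tested, 7 higher in LNCaP and 3, SMS, SMOX and MTAP, in PNT1a. AMD1, which makes the donor of aminopropyl groups, read 11.12, 11.38 and 11.85 in LNCaP and 7.19, 8.64 and 9.26 in PNT1a, 7.39-fold higher, and SRM, spermidine synthase, and ODC1, ornithine decarboxylase, were 3.53-fold and 2.62-fold higher. UGT2B17, UGT2B15 and UGT2B11, which conjugate androgens with glucuronic acid and are close in sequence, were at least 9.56-fold, at least 3.10-fold and at least 3.54-fold higher in LNCaP, with all PNT1a arrays under the level.

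Of 20 tested redox enzymes, 9 were higher in each line, near the shares of 39.2% and 38.2% over all genes tested. Differences of at least 2-fold were uneven, with 8 genes higher in PNT1a and 1 in LNCaP, against 1144 and 1067 over all genes tested. GSTP1, GSTM1 and GSTM2, glutathione transferases, were under the level on every LNCaP array. GSTP1 read 6.30, 6.5 and 6.68 in LNCaP and 13.46, 13.60 and 13.76 in PNT1a, at least 99.5-fold higher, and GSTM1 and GSTM2 were at least 13.7-fold and at least 11.4-fold higher in PNT1a. GSTM genes are similar in sequence, and their probes may not separate them. NQO1, a quinone reductase, was 3.99-fold higher in PNT1a, and CAT, catalase, 5.64-fold higher in LNCaP. GSTP1 also belongs to a list of 22 genes whose promoters are described as methylated in prostate cancer. Of 14 tested genes of that list, 10 were higher in PNT1a and 3, RASSF1, MGMT and SERPINB5, in LNCaP (median -1.55). Besides GSTP1, ANXA2, CD44 and CAV1, these included PYCARD, an inflammasome adaptor, at least 7.88-fold higher.

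DNA methylation acts on cytosines of CpG pairs, and these arrays hold no measure of it. The stretch that ends at the start is shown for GSTP1 (plus strand, chr11:67583662-67583811) and ANXA2 (minus strand, chr15:60397987-60398136), whose LNCaP means were under the level, and for LAD1 (minus strand, chr1:201399325-201399474), which was under the level on every PNT1a array. Sequences are from RefSeq (GRCh38.p14), and capitals mark CpG pairs.
GSTP1: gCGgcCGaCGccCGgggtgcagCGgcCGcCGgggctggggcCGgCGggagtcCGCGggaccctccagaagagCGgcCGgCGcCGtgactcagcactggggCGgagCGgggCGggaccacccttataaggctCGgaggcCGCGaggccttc
ANXA2: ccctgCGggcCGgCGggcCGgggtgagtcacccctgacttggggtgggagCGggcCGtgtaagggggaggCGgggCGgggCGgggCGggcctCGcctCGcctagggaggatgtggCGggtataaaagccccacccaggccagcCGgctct
LAD1: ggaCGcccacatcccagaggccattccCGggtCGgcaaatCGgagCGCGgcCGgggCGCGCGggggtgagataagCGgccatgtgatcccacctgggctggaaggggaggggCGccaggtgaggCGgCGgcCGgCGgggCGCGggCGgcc
The stretches hold 21, 14 and 19 CpG pairs, so CpG-dense promoters occurred among the largest differences in each direction. On the 1 of its 5 probes that passed the filter, LAD1 read 12.03, 12.13 and 12.17 in LNCaP and 6.34, 6.48 and 6.60 in PNT1a.

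Promoter windows were found for 7470 of the 9033 genes tested. A window with an observed over expected CpG ratio of at least 0.6 was counted as CpG-rich. This held for 85.2% of genes tested, 81.0% of those at least 2-fold higher in LNCaP and 78.6% of those at least 2-fold higher in PNT1a. Among genes that differed by at least 8-fold it was 59.6% of 52 genes toward LNCaP and 59.8% of 117 toward PNT1a. Of the methylation list, 11 of 13 windows were CpG-rich, and of the androgen list 5 of 15. The interferon motif occurred in 18.8% of windows of genes at least 8-fold higher in PNT1a and 1.92% of those at least 8-fold higher in LNCaP. Of these PNT1a genes, 24 belonged to the interferon or MHC lists and 15 of them held the motif, and of the other 93 genes 7 (7.53%) did. These shares are descriptions of the letters and were not tested.

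**Figure D3:**
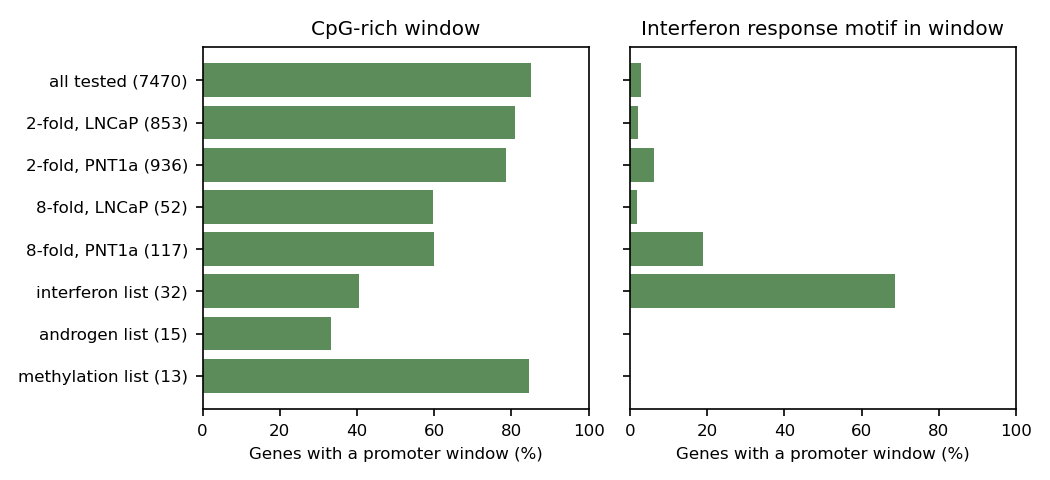
Share of genes with a promoter window (x axis, percent, number of genes in parentheses) whose window is CpG-rich (left) or holds the interferon response motif (right), for all genes tested, for genes called at least 2-fold or 8-fold higher in either line, and for 3 gene lists. CpG-rich windows make up 85.2% of all genes tested and 59.6% and 59.8% of the 8-fold classes, and the interferon motif reaches 68.8% in the interferon list.

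Calcium-binding families were mostly higher in PNT1a. Of 9 tested S100 genes, 8 were higher in PNT1a and 1, S100P, in LNCaP (median -0.50). S100A6, a growth-associated S100 protein, read 6.15, 6.30 and 6.56 in LNCaP and 12.25, 12.40 and 12.55 in PNT1a, at least 42.8-fold higher, and S100A16 was at least 8.99-fold higher. S100P, a placental S100 protein, was 5.58-fold higher in LNCaP. Of 6 tested annexins, 4 were higher in PNT1a and 2, ANXA6 and ANXA7, in LNCaP, and these turned to -0.12 and -0.25 with ribosomal centring. ANXA1, an annexin that mediates glucocorticoid effects, read 6.5, 6.62 and 6.74 in LNCaP and 12.09, 12.25 and 12.45 in PNT1a, at least 38.9-fold higher. Of 12 tested metallothioneins and zinc transporters, 8 were higher in LNCaP and 3, MT2A, SLC39A1 and SLC39A14, in PNT1a. MT1F and MT1X, close to MT1G in sequence, were 11.4-fold and 8.70-fold higher, while MT1E read 9.04, 9.22 and 9.75 and 8.55, 9.31 and 10.89 (limma adjusted p = 0.46). SLC39A6, a zinc importer, was 3.58-fold higher in LNCaP.

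Secreted proteases and cytokines were higher in PNT1a. Of 10 tested plasminogen activators, metalloproteinases and inhibitors, 8 were higher in PNT1a and 1, SERPINB5, in LNCaP (median -1.40). PLAU, urokinase, read 6.12, 6.33 and 6.44 in LNCaP and 9.95, 10.06 and 10.17 in PNT1a, at least 8.47-fold higher, its receptor PLAUR at least 3.18-fold, and TIMP2 7.02-fold. Of 16 tested cytokines and NF-kappaB targets, 14 were higher in PNT1a and 2, CXCL16 and CCL20, in LNCaP (median -1.69), and CCL20 turned to -0.14 with ribosomal centring. CXCL8, the neutrophil chemokine interleukin 8, read 6.88, 7.02 and 7.26 and 11.45, 12.16 and 13.41, 40.4-fold higher. IL1B and IL6 were at least 14.1-fold and at least 13.4-fold higher and varied widely in PNT1a, with IL6 between 9.40 and 12.53. Of 17 tested AP-1 factors and YAP targets, 15 were higher in PNT1a and 2, JUN and JUND, in LNCaP (median -1.32). CCN1, a matrix protein and YAP target, was 25.7-fold higher, FOSL1, an AP-1 subunit, at least 6.24-fold, and DKK1, a secreted WNT inhibitor, at least 10.9-fold. FOSL1 was highest on PNT1a array 6, at 10.78 against 9.21 to 9.54. Of the TGF-beta list, 12 were tested, 5 higher in PNT1a and 4 in LNCaP. SMAD3, which carries the signal, and TGFBR2, the receptor, were 8.81-fold and at least 2.71-fold higher in PNT1a, and TGFBR2 was under the level on every LNCaP array.

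Among organelle groups, 13 of 18 tested secretory pathway and ER chaperone genes were higher in LNCaP and 4 in PNT1a (median 0.83). MANF, an ER stress protein, read 13.37, 13.59 and 13.74 in LNCaP and 11.05, 11.21 and 11.40 in PNT1a, 5.17-fold higher, and SDF2L1 and CRELD2 were 3.42-fold and 3.02-fold higher. Of 20 tested genes of clathrin-mediated endocytosis, the process in which HIP1 acts, 13 were higher in PNT1a and 3, CLTA, AP2A2 and RAB5A, in LNCaP (median -0.33). With ribosomal centring CLTA and AP2A2 turned to -0.25 and -0.25. DAB2, a cargo adaptor, read 6.39, 6.45 and 6.55 in LNCaP, under the level on all 6 arrays, and 8.97, 9.65 and 9.73 in PNT1a, at least 5.92-fold higher. AP2M1, a subunit of the AP2 adaptor, and BIN1, which bends membranes, were 2.33-fold and 2.34-fold higher in PNT1a.

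Ribosomal and respiratory genes were slightly higher in LNCaP on the deposited scale. Of 67 tested cytosolic ribosomal protein genes, 42 were higher in LNCaP and 7 in PNT1a (median 0.34). Most differences were small, but RPL14, a protein of the large subunit, read 9.83, 9.86 and 10.27 in LNCaP and 6.56, 6.63 and 6.74 in PNT1a, under the level on all 6 PNT1a arrays, and both of its probes were called higher in LNCaP. Ribosomal probes can share sequence with pseudogenes. Of 37 tested respiratory chain and ATP synthase genes, 28 were higher in LNCaP and 2, NDUFB8 and SDHA, in PNT1a (median 0.56), and with ribosomal centring 14 and 11. UQCRB, of complex III, was 4.30-fold higher in LNCaP.

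Genes tied to embryonic position and germ cells also marked the lines. Of 12 tested HOX genes, 8 were higher in PNT1a and 2, HOXB13 and HOXC6, in LNCaP, and HOXC6 turned to -0.26 with ribosomal centring. HOXB7 and HOXC8, trunk HOX genes, read 9.94, 10.09 and 10.17 and 9.49, 9.91 and 10.06 in PNT1a with LNCaP under the level, at least 8.63-fold and at least 7.46-fold higher. All 8 tested cancer-testis antigens of 20 listed were higher in LNCaP (median 1.86), with no PNT1a mean above the level. They passed the filter through LNCaP, so their common direction follows from the filter. MAGEA6 read 9.85, 10.16 and 10.40 in LNCaP and was at least 9.0-fold higher, MAGEA10 at least 6.89-fold and PRAME at least 4.08-fold. MAGEA genes are close copies and their probes may not separate them. Of 9 tested neuroendocrine and neuronal markers, 5 were higher in PNT1a and 3 in LNCaP. UCHL1, a neuronal ubiquitin hydrolase, was at least 29.4-fold higher in PNT1a, and BEX2, a small brain-expressed protein, 5.78-fold higher in LNCaP. CHGA and SYP, the defining neuroendocrine markers, did not pass the filter.

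**Figure D4:**
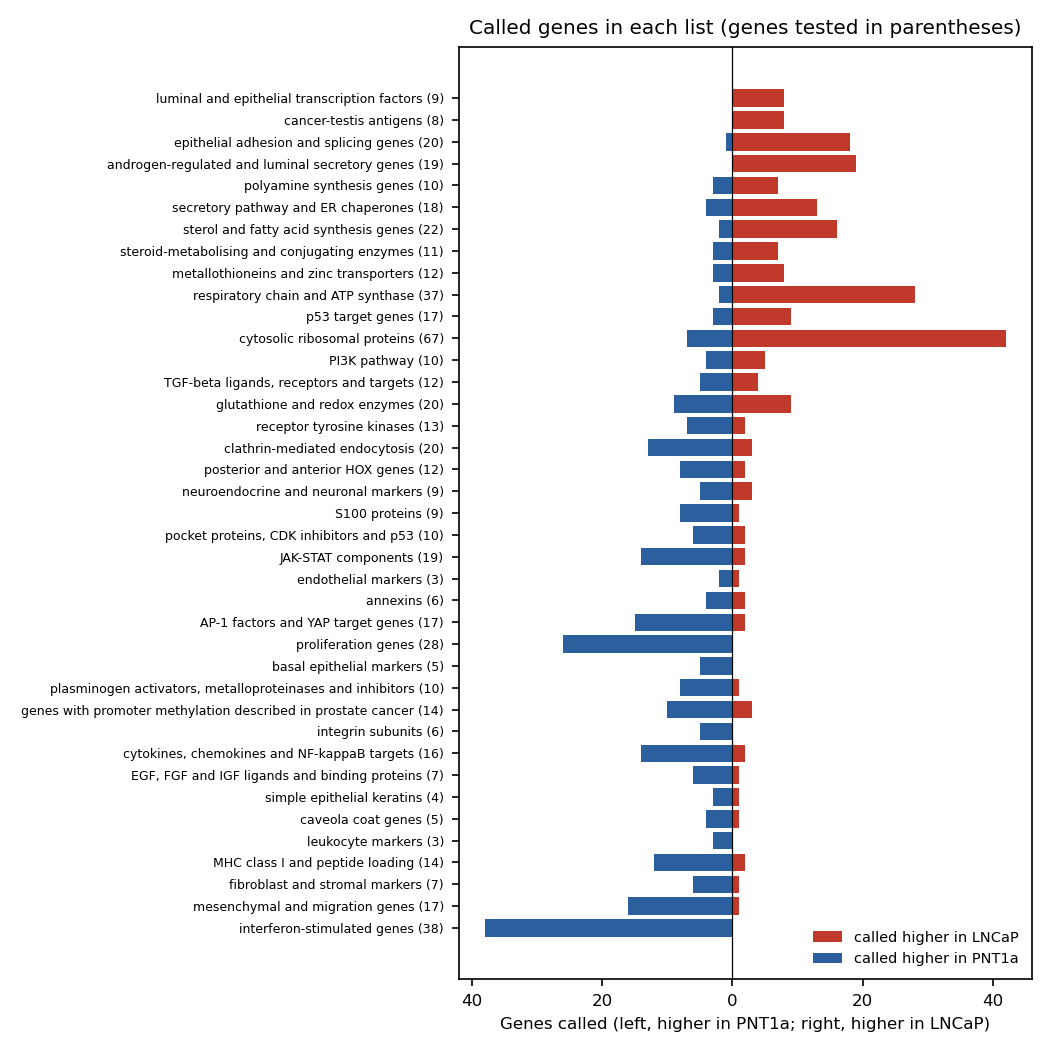
Number of genes called (limma adjusted p under 0.05) in each of 39 gene lists, with genes higher in PNT1a to the left and in LNCaP to the right, ordered by the median difference of the list and with the number of tested genes in parentheses. Luminal, adhesion and cancer-testis lists lie to the LNCaP side, and the interferon list, with 38 of 38 genes to the left, lies at the PNT1a end.

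Over the 39 lists, 294 genes passed the 2-fold rule. The plot of called genes by list shows lists called mainly to one side and others, such as redox, TGF-beta and PI3K, with calls to both, as over all genes tested. The lists were chosen with earlier results of these data known.

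The same lines were also measured on 12 HIP1-labelled arrays, which share no array with the vector comparison and stand as other cultures of the lines. There 9660 of 12950 probes (74.6%) were called, 3063 (23.7%) of them by at least 2-fold. Of the 2967 probes with a 2-fold call on vector arrays, 2943 (99.2%) had the same sign on HIP1-labelled arrays, and 2315 (78.0%) also had a 2-fold call. The share was 81.6% for probes higher in LNCaP and 74.2% for probes higher in PNT1a, and 4 probes were called in opposite directions. KLK3, VIM and CAV1 kept their directions, with measured differences of 1.79, -3.94 and -4.47 against 1.66, -5.08 and -4.33 on vector arrays. Those for KLK3 and CAV1 include a mean under the background level, and with that mean set to the level the HIP1-labelled bounds were 1.16 and -3.84. In the limma fit over all 24 arrays the VIM difference was called as changed, by -1.14 (vector minus HIP1-labelled, adjusted p = 1.9e-06). The KLK3 and CAV1 differences were not (limma adjusted p = 0.61 and 0.70).

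The size of the difference did change for many probes. In the fit over all 24 arrays, 3071 of 14180 probes (21.7%) had a line difference that differed between vector and HIP1-labelled arrays, 1604 (11.3%) more positive and 1467 (10.3%) more negative on vector arrays. With a change of at least 2-fold the counts were 199 (1.40%) and 224 (1.58%). Without both PNT1a arrays numbered 6 the first count rose to 4641. Of the 38 interferon genes, 33 had a more negative difference on vector arrays, and their median line difference was -3.44 on those and -1.45 on HIP1-labelled arrays. OAS2, MX2, IFIT3, IFI44L and HERC6 were among the 8 genes with the largest changes in that direction. IFI44L in PNT1a had a mean of 11.66 ± 0.35 (SD, n = 6) on vector arrays and 7.02 ± 0.39 on HIP1-labelled arrays, while LNCaP was under the level in each. The plot of interferon genes shows a lower PNT1a mean on HIP1-labelled than on vector arrays for all 38. MX1 kept a difference of -5.11 on HIP1-labelled arrays, and 30 of the 38 interferon genes were called higher in PNT1a there. A gene that did not pass the filter on those arrays, such as IFI44L, was not tested there and counts as not called.

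**Figure D5:**
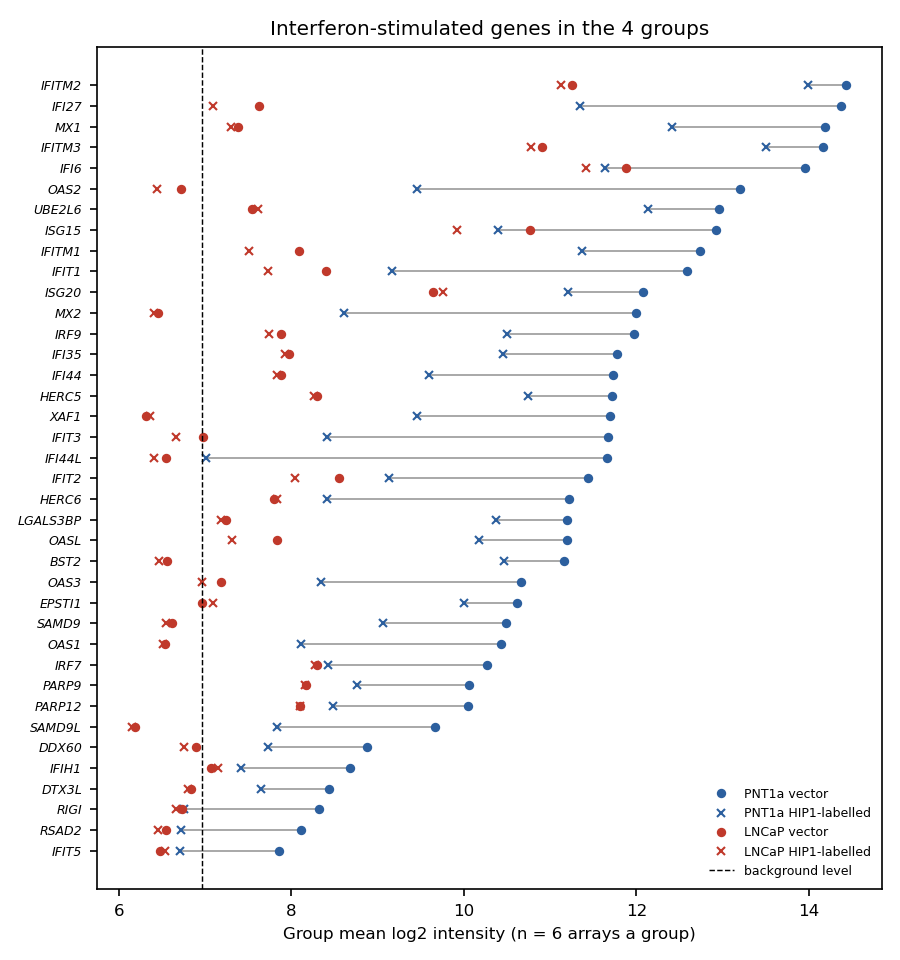
Group mean log2 intensity (x axis, 6 arrays a group) of the 38 tested interferon-stimulated genes in PNT1a (blue) and LNCaP (red), on vector arrays (circles) and HIP1-labelled arrays (crosses), with the background level of 6.97 dashed and grey lines joining the PNT1a means. Every blue circle lies right of its red circle and of its blue cross, and for IFI44L the cross is at 7.02 against 11.66 for the circle.

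The MHC list had medians of -2.60 on vector and -2.47 on HIP1-labelled arrays, and the cancer-testis list 1.86 and 1.91. The sterol and fatty acid list had medians of 0.81 and -0.05, and the line difference of 17 of its genes was called as changed. CCND1, cyclin D1, was 1.54-fold higher in LNCaP on vector arrays (a difference of 0.63) and differed by 3.89 on HIP1-labelled arrays, where its PNT1a mean was 8.13 against 11.30 with vector. BEX1, a brain-expressed X-linked protein, and NDN, the imprinted growth suppressor necdin, changed by -3.21 and -2.77 in measured means. On vector arrays BEX1 was called higher in PNT1a on 1 of its 2 tested probes. The NDN mean in PNT1a was under the level on HIP1-labelled arrays, and with it set to the level the change was -2.11. In the other direction SPOCK1, a matrix proteoglycan, changed by 3.57, from a line difference of -1.23 to -4.79, and DDIT4, a stress-induced inhibitor of mTOR, by 2.43. GPR37, an orphan receptor, was higher in LNCaP on vector arrays (0.90) and higher in PNT1a on HIP1-labelled arrays (-1.35). MYO5C, STOM, SCNN1A, SLPI and MDK complete the 8 genes in that direction. Construct, culture and any batch of the HIP1-labelled arrays cannot be told apart.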

How the data were processed

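The deposited table holds log2 probe intensities of 24 arrays. All columns share a distribution (sorted values differ by at most 0.052), so the table was normalized between arrays by the authors, and the sources used here name no software. A further table of 24 per-sample value columns was not used. Groups came from the sample labels, which give 6 biological replicates a group. Nothing further describes the cultures, so p-values measure the spread between these arrays and treat each array as independent.

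The background level lies 3 SDs (0.16 each, from values under the mode) above the mode of 6.48. Lines were compared with limma 3.58.1 in R 4.3.3 as LNCaP minus PNT1a with Benjamini-Hochberg adjustment over all probes tested (adjusted p of 0.05), the change between vector and HIP1-labelled arrays as an interaction over 24 arrays, and 4 single genes by exact permutation. The fit was tested on simulated data. A gene stands by its probe with the highest mean. Of 48803 probes, 28098 had 1 symbol, 13 several and 20692 none. The 39 lists hold 881 genes, and 76 of them, without a named probe, were left out.

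Members and lists were chosen with earlier results of these data known. Named are the 3 markers and HIP1, the 12 largest non-overlapping differences a direction, up to 5 called and 2 uncalled genes a list, and the 8 largest interaction changes a direction among genes called in both tests. Genes that oppose their list, and markers under the background level, were named after their values were seen. Alternatives were other fits, filters, levels, scales, a replicate block, HIP1-labelled arrays in place of vector arrays, and each array left out. Promoters are RefSeq windows (GRCh38.p14) of 250 bases before to 50 after the start, the first listed for each gene.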

Additional observations from a re-analysis of the deposited data

Results flagged for a closer look

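Of 416 groups of 6 arrays looked at, 1 per line for each of 208 genes, 48 (11.5%) held a highest or lowest value whose gap to the next array exceeded Dixon's 95% critical value for 6 samples, as a share of the group's range. Chance gives about 1 in 20 groups. PNT1a array 6 held 38 of them, and without it the differences of these genes moved by at most 0.57 on the log2 scale, with the direction and call of all 38 kept.

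It was the lowest PNT1a array for AMD1 at 7.19, BEX1 at 11.42, CAV1 at 9.83, CAV2 at 7.94, CD14 at 7.90, CLDN1 at 7.15, COL5A2 at 8.30, DAB2 at 8.97 and FSTL1 at 9.46 (log2 intensity). The array was likewise lowest for GPR37 at 6.67, HERC6 at 10.46, HOXC8 at 9.49, IFNGR1 at 10.02, IGFBP7 at 9.39, IL6ST at 9.16, JAK1 at 7.29, KRT18 at 6.76 and KRT80 at 8.86. The array was also lowest for MDK at 8.19, NQO1 at 11.79, OLR1 at 10.02, PSMB10 at 10.43, PSMB9 at 10.02, S100A16 at 9.21, SCNN1A at 6.85, STOM at 8.98 and TP53I3 at 8.01. It was the highest PNT1a array for CLTA at 10.85, CRELD2 at 10.42, ERAP2 at 12.76, FOSL1 at 10.78, IGFBP2 at 8.05, ITGA3 at 10.89, MGMT at 8.24, ODC1 at 11.54 and PRAME at 7.34. The same held for STEAP2 at 7.06 and TYK2 at 10.25.

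The other values that stood apart were spread over the arrays. CAVIN3 was highest on LNCaP array 3 at 6.73. DKK1 was lowest on LNCaP array 1 at 6.52. EGFR was highest on LNCaP array 6 at 8.60. GAGE12G was lowest on LNCaP array 3 at 13.62. IGFBP7 was highest on LNCaP array 5 at 6.60. MYO5C was lowest on LNCaP array 3 at 10.05. PTPN6 was highest on LNCaP array 2 at 8.66. S100A10 was lowest on PNT1a array 4 at 14.39. S100P was highest on LNCaP array 4 at 10.11. SCNN1A was highest on LNCaP array 6 at 10.81.

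The line difference changed between vector and HIP1-labelled arrays for 3071 probes in the limma fit over 24 arrays. Among named genes the change (log2, vector minus HIP1-labelled) was negative for OAS2 (-3.47), MX2 (-3.34), BEX1 (-3.21), IFIT3 (-2.94), IFI44L (-4.50), HERC6 (-2.84), NDN (-2.77) and CCND1 (-3.26). It was positive for MYO5C (2.02), DDIT4 (2.43), STOM (1.95), SCNN1A (1.86), SPOCK1 (3.57), GPR37 (2.34), SLPI (2.04) and MDK (1.89). These are changes of measured means, also where a mean lies under the background level. With such means set to the level the change was -3.74 for OAS2, -3.38 for MX2, -3.24 for IFIT3, -4.64 for IFI44L, -2.11 for NDN, 1.44 for MYO5C, 1.92 for STOM and 2.26 for GPR37.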

How the results depend on the processing

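Without each array in turn the vector comparison called 9509 to 10334 probes, with 1503 to 1544 at least 2-fold higher in LNCaP, 1420 to 1449 in PNT1a and 291 to 297 listed genes past 2-fold. The KLK3 difference ranged from 1.59 to 1.71, VIM from -5.12 to -5.02 and CAV1 from -4.51 to -4.28 (before the background bound). HIP1-labelled calls ranged from 9354 to 10477 and changed line differences from 2792 to 4170. Without both PNT1a arrays numbered 6, an alternative chosen after seeing the data, the last count was 4641. The replicate block called 9603 probes and 2967 at 2-fold, and changed the call of no main count. Replicate numbers did not pair the lines (r of same-numbered deviations from -0.19 to 0.01). Background subtraction with an offset of 16 gave 2375 probes 2-fold higher in LNCaP and 2134 in PNT1a. Ribosomal centring gave 708 probes 2-fold higher in LNCaP and 3073 in PNT1a, with the LNCaP share of calls at 21.9% in place of 52.6%. Under that centring ANXA6 -0.12, ANXA7 -0.25, AP2A2 -0.25, BMPR2 -0.45, CCL20 -0.14, CCNG1 -0.29, CDK1 -0.35, CDK4 -0.52, CDKN1B -0.34, CLTA -0.25, ERBB2 -0.38, FDPS -0.38, HOXC6 -0.26, HOXD13 -0.50, HSD17B6 -0.42, JAK2 -0.33, PACSIN2 -0.16, PDGFRA -0.051, PSMB10 -0.13, SDHD -0.35, SOCS2 -0.42 and STMN2 -0.50 changed sign (log2 differences). With HIP1-labelled arrays in place of vector arrays the sign changed for CDK1 -0.48, CDK4 -0.50, CXCL16 -0.061, FDPS -0.66, GPR37 -1.35, HBEGF 0.055, HOXC13 0.15, HOXC6 -0.24, ITGAV 0.30, PSMB10 -0.30, SAT1 -0.013 and SMAD6 0.022. The causes were not tested. Of 6529 values of 273 genes under other settings, 6374 kept direction and call, 54 lost the call, 67 gained it and 34 changed sign. Of 1872 list counts, 78 moved by over 1.5 times. Probes under the background level limit the folds to bounds, and 6 arrays a group limit the precision.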
